A study of Sus scrofa with 63 samples.

Results

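T and B lymphocytes reach the wall of the pig jejunum before birth, and the transcripts that define them can be followed in whole-tissue RNA. The genes described here are CD3D, CD3E, CD2, CD4, CD8A, CD79A, CD79B, PAX5 and PTPRC, and every array probe whose gene name was 1 of these 9 symbols, in any letter case, was taken. This gave 19 of 60305 probes, which covered 8 of the 9 genes, since no probe carried the name PAX5. The samples were jejunum from 63 male fetuses of the Large White (LW) and Meishan (MS) breeds and both crosses between them. LW and MS fetuses were purebred, LWMS fetuses had an LW sire and an MS sow, and MSLW fetuses had an MS sire and an LW sow. At day 90 of gestation there were 9 LW, 6 MS, 9 LWMS and 8 MSLW fetuses, and at day 110 there were 9 LW, 7 MS, 9 LWMS and 6 MSLW fetuses. Sows had been inseminated with mixed semen, so litter mates of different sires shared a uterus. Litters are not identified in the labels, so each fetus counts as a sample of its own and p-values leave out the spread between litters.

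CD3D and CD3E are invariant chains of the CD3 complex, which passes the signal of the T cell receptor into the cell. CD2 is an adhesion and co-stimulatory receptor of T and NK cells, CD4 and CD8A are the co-receptors of helper and cytotoxic T cells, and in the pig CD8A is also carried by NK cells. CD79A and CD79B form the signalling pair of the B cell receptor, PAX5 is the transcription factor that holds B cell identity, and PTPRC encodes CD45, a phosphatase on all nucleated blood cells. In the intestine these cells lie in the epithelium, in the lamina propria and in lymphoid follicles such as Peyer's patches.

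Levels are given as log2 of the background-corrected spot signal minus the 75th percentile of that array, so a value of 0 is as bright as that percentile. Testing required that, in 1 or more of the 8 groups, no fewer than 75% of arrays had the probe well above background, and 14 of the 19 probes (for 7 genes) and 40515 of all 60305 met this. Between 51.2% and 87.6% of all probes were well above background on an array. All 14 genes with a probe of an epithelial list (among them KRT8, FABP1 and LCT) and all 8 of a smooth muscle list (among them ACTG2 and DES) passed this filter. Of the arrays, those of fetuses 632 (MS, day 110), 484 (LW, day 90), 532 (MS, day 90) and 469 (LW, day 110) had the lowest array weights, 0.151, 0.193, 0.285 and 0.347, and values without them are given for the age differences of CD2, CD3E and CD79B.

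The probes are 60 bases long, and their letters matter here because probes of 1 gene did not always give the same result. The first 2 sequences below are the whole probes of CD2 and CD79A that the array files place at bases 516 and 537 of the transcript, and the others are stretches of at most 30 bases of the probes on which the results turn. Capitals mark bases that both CD3E probes share, which are part of an overlap of 51 bases, and the repeat of T and G in the PTPRC probe A_72_P186806.
CD2 A_72_P178131, whole: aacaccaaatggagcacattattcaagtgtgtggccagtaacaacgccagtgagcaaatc
CD79A A_72_P070401, whole: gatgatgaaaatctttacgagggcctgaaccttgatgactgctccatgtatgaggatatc
CD3E A_72_P165731, bases 2 to 30: cccagcccAAGGATATTGCTGCCTCATTA
CD3E O2506, bases 1 to 30: AAGGATATTGCTGCCTCATTATCTTTTGAA
CD8A A_72_P077466, bases 1 to 30: tgcgtgctcgctggaagaaaaaactaaata
CD79A O4144, bases 1 to 30: tttttcacagtcttttctgggtgtgtcctg
CD79B O7239, bases 1 to 30: gcagagacgtgtctggaacctatagatgga
PTPRC O10712, bases 1 to 30: tttgttacaggaggactgtgctcagtactg
PTPRC A_72_P186806, bases 31 to 60: catgccTGTGTGTGTGTGTGTGTGTGTGTG

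Some sequences stood on the array more than once and show the error of the spots themselves. The CD8A probe O1570 has the same 60 bases as A_72_P077466, and the levels of these spots differed by a median of 0.24 on the log2 scale over 63 arrays, with an SD of the difference of 0.44. The SD between fetuses of a group was 0.67 and 0.76 for these same probes. The overlapping CD3E probes differed with an SD of 0.34, against SDs between fetuses of 0.51 and 0.52. For CD4, where A_72_P077421 and O5495 hold the same sequence, the SD of the difference was 0.80, about that between fetuses (0.80 and 0.82).

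Each of the other genes is described by the brightest of its tested probes, and PTPRC by a pair of probes for reasons given with its values. The T cell genes CD3D and CD3E were well above background on all arrays, and CD79B on 32 of 32 arrays at day 90 and 30 of 31 at day 110. CD2 was well above background on 31 and 29 of these arrays and CD8A on 30 and 25, whereas CD79A was so on 25 and 19. CD4 was at the edge of detection, since its 3 probes were well above background on 12, 5 and 17 of 63 arrays and none was tested. By group, the most often detected CD4 probe, O5495, was well above background on 6 of 9 LW arrays at day 90 and on 2 of 9 at day 110, and in the other groups on 1 or 2 arrays. CD4 therefore has a bound in most groups and no level. The CD3D probe A_72_P504254 and the CD8A probe A_72_P685866 were also untested, with 13 and 8 of 63 arrays well above background.

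**Figure D1:**
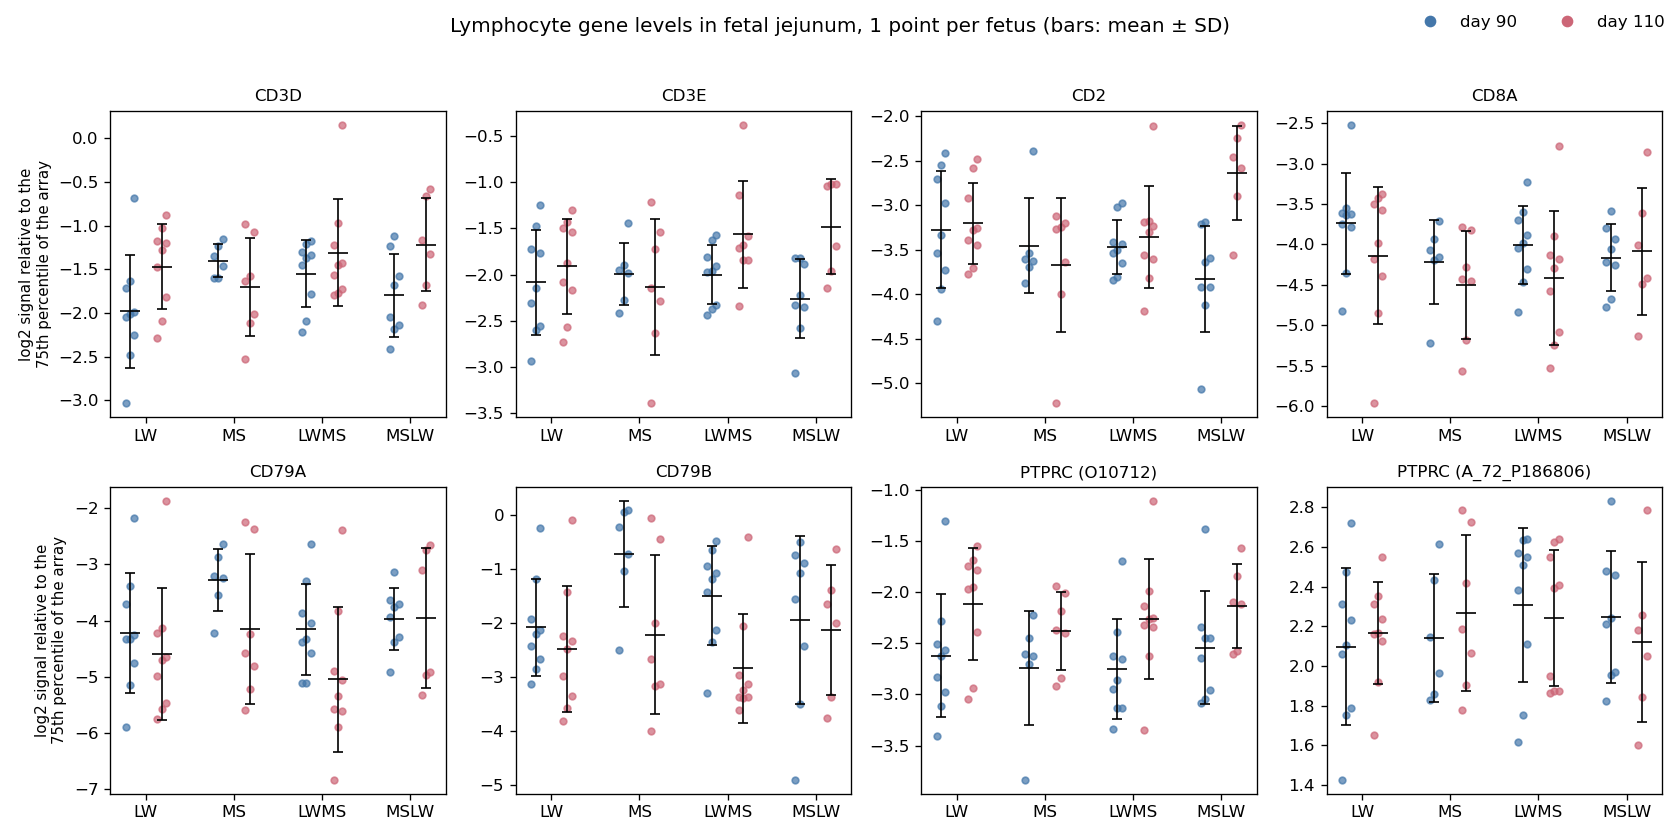
Level of each gene (log2, with 0 at the array's 75th percentile) in every fetus, by genotype and day, with the mean and SD of each group. The groups overlap in every panel, and the scatter within groups is widest for CD79A and CD79B.

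The first question of the design was whether the genes changed between day 90 and day 110, when much of the jejunal transcriptome does. Averaged over the 4 genotypes, none of the 14 probes was called, where a call needed an adjusted p of at most 0.01 in limma and a log2 difference of at least 0.5, and 5 of the 14 had an unadjusted p under 0.05. By the same rule 13.8% of all tested probes were called. In the F test for any difference between the 8 groups, called at an adjusted p under 0.01, again 0 of 14 probes passed (4 at an unadjusted p under 0.05), against 28.7% of all tested probes. The differences of the 14 probes, 7 above 0 and 7 below, are given by gene, and T cell genes were not tested against B cell genes.

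CD3E ranged at day 90 from -3.07 to -1.25 (median -1.98, n = 32) and at day 110 from -3.39 to -0.38 (median -1.72, n = 30, after 1 outlier spot was left out). Most of the values of both days overlapped, and 6 fetuses at day 110 lay above every fetus at day 90. The difference, day 110 minus day 90, was 0.31 ± 0.13 (SE), with an adjusted p of 0.0502 in limma, and it was positive in 8 of 8 slides when both ages were compared within a slide, by 0.01 to 0.75. CD3D ran from -3.04 to -0.68 (median -1.62) at day 90 and from -2.53 to 0.16 (median -1.46) at day 110, a difference of 0.26 ± 0.13 (adjusted p = 0.11). CD2 ran from -5.06 to -2.40 (median -3.57) and from -5.23 to -2.10 (median -3.25), a difference of 0.29 ± 0.14 (adjusted p = 0.0952). The days overlapped for both genes, with 3 fetuses at day 110 above all of day 90 in each case. The second tested CD3D probe, A_72_P185936, differed by -0.12 ± 0.21 (adjusted p = 0.689). It was well above background on only 13 of 32 arrays at day 90 and 9 of 31 at day 110. This probe met the filter only through MS at day 90, with 5 of 6 arrays, so its difference is mostly one between signals at background.

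The size of these differences depended on the weight given to single arrays. With array weights CD3E differed by 0.44 (adjusted p = 0.000768) and CD2 by 0.50 (adjusted p = 0.000217), and without the 4 fetuses of lowest array weight by 0.41 and 0.43 (adjusted p = 0.00707 and 0.00613), all under the minimum difference of 0.5. CD8A, the co-receptor, gave a difference of the opposite sign. Its levels ran from -5.22 to -2.52 (median -3.96) at day 90 and from -5.97 to -2.78 (median -4.28) at day 110, with 4 fetuses at day 110 below all of day 90. The difference was -0.25 ± 0.17 (adjusted p = 0.234), and -0.37 ± 0.19 (adjusted p = 0.122) at the second spot of the same sequence. At the first spot it was -0.00912 with normexp, another background correction, and -0.09 in the authors' values (adjusted p = 0.946 and 0.484).

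CD79B ranged at day 90 from -4.90 to 0.10 (median -1.31, n = 32) and at day 110 from -4.01 to -0.07 (median -2.96, n = 31). No fetus at day 110 lay outside the range of day 90, but the middle of the distribution was lower. The difference was -0.85 ± 0.29, which is 0.554-fold, with an adjusted p of 0.0151 in limma that misses the threshold of 0.01. It was negative in 6 of 8 slides, with slide values from -2.10 to 1.54. The adjusted p fell under 0.01 in 9 of the 63 fits that left out a single fetus (611, 559, 632, 401, 688, 450, 738, 533 or 766), where the difference was -0.96 to -0.91, and in the values the authors processed, where it was -0.70 (adjusted p = 0.00953). Without the 4 fetuses of lowest array weight it was -0.93 (adjusted p = 0.00869), and with normexp -0.53 (adjusted p = 0.0273). With array weights it was -0.68 (adjusted p = 0.0299) and with the slide as a block -0.77 (adjusted p = 0.0274). Quantile normalization, median centring and no filter on dim probes gave adjusted p of 0.0199, 0.0225 and 0.0233 in limma. Over all fits that left out a single fetus, the adjusted p ran from 0.00389 to 0.0297. CD79A, the partner chain, ran from -5.88 to -2.18 (median -3.99) at day 90 and from -6.83 to -1.87 (median -4.89) at day 110, and the spread was wider at the later day. It differed by -0.53 ± 0.26 (adjusted p = 0.103) at O4144 and by -0.57 ± 0.30 (adjusted p = 0.125) at A_72_P070401. The probe A_72_P070401 met the filter only through LW and MS at day 90, with 8 of 9 and 6 of 6 arrays. Its fall with age is therefore no separate support for that at O4144. At O4144 the difference was -0.0446 with normexp and -0.18 in the authors' values (adjusted p = 0.806 and 0.367). In bulk tissue RNA, fewer cells of a type and less RNA per cell cannot be told apart, for these and all genes below.

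CD45 gave different answers at its 3 probes. At O10712, levels at day 90 ran from -3.83 to -1.31 (median -2.64) and at day 110 from -3.35 to -1.11 (median -2.19). The difference was 0.44 ± 0.13 with an adjusted p of 0.00633 in limma, past the threshold for p but under the minimum of 0.5, and it was positive in 7 of 8 slides. At A_72_P442513 the difference was 0.16 ± 0.15 (adjusted p = 0.395). The brightest probe, A_72_P186806, showed no such shift, at 0.00 ± 0.09.

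**Figure D2:**
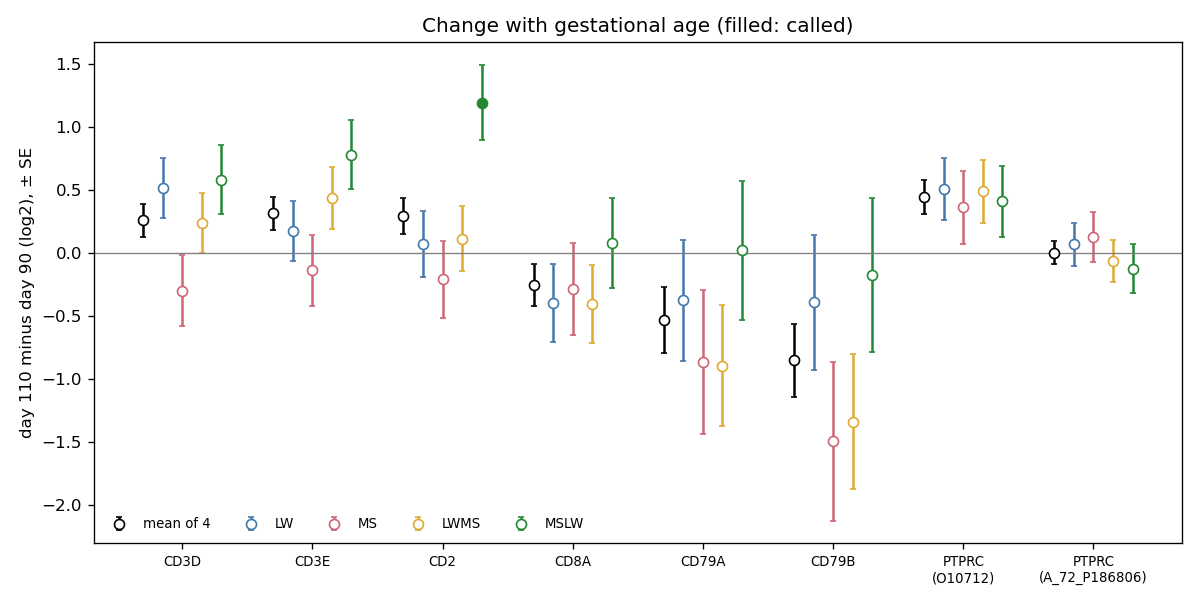
Difference between day 110 and day 90 (log2, with SE from limma) for each gene, as the mean of the 4 genotypes and in each genotype. Values of CD3D, CD3E and CD2 are mostly above 0 and those of CD79A and CD79B mostly below it, and CD2 in MSLW, at 1.19, is the only difference called among those drawn.

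Within single genotypes, 1 difference of the 14 probes was called, a rise in MSLW. Calls made up 5.43% of all tested probes there (2.45% for rises alone), and 4.76% in LW, 3.12% in MS and 9.86% in LWMS, where 0 of the 14 probes were called (2, 2 and 1 at an unadjusted p under 0.05). The call was CD2 at A_72_P178131. In MSLW fetuses it ran from -5.06 to -3.19 (median -3.78, n = 8) at day 90 and from -3.56 to -2.10 (median -2.52, n = 6) at day 110, and all fetuses at day 110 except 476 lay above all fetuses at day 90. The level rose by 1.19 ± 0.30, or 2.28-fold, with an adjusted p of 0.00441 in limma.

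The other CD2 probe did not share this rise. A_72_P131826, which the files place at base 2271, differed by 0.24 ± 0.38 in MSLW (adjusted p = 0.744), and it was well above background on only 3 of the 6 MSLW arrays at day 110. On A_72_P178131 the rise was 0.70 with normexp and 0.75 in the authors' values (adjusted p = 0.00461 and 0.00216). The call was lost with the slide as a block (1.11, adjusted p = 0.0117) and without fetus 450 (1.01, adjusted p = 0.0161), 851 (1.08, 0.0167), 481 (1.11, 0.0153) or 560 (1.15, 0.0114). Fetus 450 was the lowest of the MSLW day 90 group for CD3D, CD3E and CD2. The interaction of age with genotype, which asks whether the genotypes differed in their change, was not called for this probe (adjusted p = 0.416) or for any of the 14 (1 at an unadjusted p under 0.05), while 0.0913% of all tested probes were called at an adjusted p under 0.05. The rise in MSLW was therefore not shown to differ from the changes of CD2 in LW (0.07), MS (-0.21) and LWMS (0.11). Without the 4 fetuses of lowest array weight the MS value was 0.26, and that of CD3E in MS, -0.14 with all fetuses, was 0.18.

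CD3E and CD3D in MSLW moved in the same direction as CD2 without passing the test. CD3E was higher at day 110 by 0.78 ± 0.27 (adjusted p = 0.0515) and CD3D by 0.58 ± 0.27 (adjusted p = 0.165). Among lists of other genes, read against the 5.43% of all tested probes, 0 of the 12 tested genes of T cell receptor signalling were called in MSLW, and of 15 tested pan-leukocyte genes only ARHGDIB, a gene of high level in leukocytes, was called, with a rise of 1.03 (adjusted p = 0.00909). Of 14 cytotoxic genes CTSW was called (0.71), of 16 B cell genes CD24 (0.82), of 24 homing genes CCL28 (2.62) and CXCL12 (-1.01), and of 6 plasma cell and immunoglobulin genes PIGR (4.94).

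The B cell pair showed its larger differences with age in fetuses of MS sows. CD79B in MS fetuses ran from -2.50 to 0.10 (median -0.47, n = 6) at day 90 and from -4.01 to -0.07 (median -2.67, n = 7) at day 110, a difference of -1.49 ± 0.63 (adjusted p = 0.147). In LWMS it ran from -3.30 to -0.48 (median -1.18, n = 9) and from -3.61 to -0.42 (median -3.24, n = 9), a difference of -1.34 ± 0.53 (adjusted p = 0.0669). The differences in LW and MSLW were -0.39 ± 0.53 and -0.18 ± 0.61. The highest LWMS fetus at day 110 was 611, and the others of that group were at -2.07 or lower. CD79A at O4144 differed by -0.87 ± 0.57 in MS and -0.89 ± 0.48 in LWMS (adjusted p = 0.407 and 0.196 in limma). In LW and MSLW it differed by -0.38 ± 0.48 and 0.02 ± 0.55. With normexp the CD79A values for MS, LWMS, LW and MSLW were -0.23, -0.30, 0.13 and 0.23. In the authors' values they were -0.37, -0.31, -0.17 and 0.14. For the breed of the sow by age, CD79B gave -1.13 ± 0.58 (adjusted p = 0.474) and CD79A gave -0.70 ± 0.52 (adjusted p = 0.699), and 0 of 14 probes were called at an adjusted p under 0.05 (2 at an unadjusted p under 0.05), against 0.388% of all tested probes.

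The next comparisons ask about breed. Between purebred MS and LW fetuses, 0 of 14 probes were called at day 90, against 3.58% of all tested probes, and 0 at day 110, against 4.99%, with 3 and 2 probes at an unadjusted p under 0.05. At day 90 the largest difference was that of CD79B, for which LW fetuses ran from -3.13 to -0.25 (median -2.20) and MS fetuses from -2.50 to 0.10 (median -0.47). MS fetuses were thus mostly in the upper part of the LW range or above it, by 1.36 ± 0.60 (adjusted p = 0.191). CD79A differed by 0.93 ± 0.54 (adjusted p = 0.377), and by 0.46 with normexp and 0.54 in the authors' values. At day 110 the same differences were 0.26 ± 0.57 and 0.44 ± 0.52.

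At day 110 the lowest adjusted p among the probes was that of PTPRC at A_72_P442513. LW fetuses lay between -3.21 and -1.07 (median -2.29) and MS fetuses between -3.69 and -2.49 (median -3.13), a difference, MS minus LW, of -0.83 ± 0.28 (adjusted p = 0.0439), which misses the threshold of 0.01. The PTPRC probe O10712 gave -0.26 ± 0.26 (adjusted p = 0.602). The highest LW fetus was 469, whose array had a low weight.

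By the breed of the sow, over both ages and at an adjusted p under 0.05, 0 of 14 probes were called (2 at an unadjusted p under 0.05), against 16.0% of all tested probes. The lowest adjusted p was that of CD2 at A_72_P131826, at 0.0944, with a difference, MS minus LW sows, of -0.43 ± 0.18. That probe was well above background on 40 of 63 arrays. The brightest CD2 probe, A_72_P178131, gave -0.25 ± 0.14 (adjusted p = 0.23 in limma). CD4, untested because it was dim, was lower in fetuses of MS sows by 0.64 ± 0.20 at A_72_P077421 and by 0.63 ± 0.21 at the same sequence in O5495 when no filter was applied (adjusted p = 0.0321 and 0.0405). These spots were well above background on 7 and 12 of 32 arrays from LW sows and on 5 and 5 of 31 from MS sows, so the difference is mostly one between signals at background. By the breed of the sire 0 of 14 were called (3 at an unadjusted p under 0.05), against 6.95% of all tested probes. PTPRC at A_72_P442513 had the lowest adjusted p, 0.0787 in limma, with a difference, MS minus LW sires, of -0.41 ± 0.15. The PTPRC probe O10712 gave -0.01 ± 0.13 (adjusted p = 0.982). For an MS against an LW sire, CD79A gave 0.66 ± 0.26 at O4144 (adjusted p = 0.124) and 0.77 ± 0.30 at A_72_P070401 (adjusted p = 0.115), and CD79B gave 0.47 ± 0.29 (adjusted p = 0.398). At O4144 it was 0.25 with normexp and 0.36 in the authors' values (adjusted p = 0.25 and 0.141). For the breed of the sire by age 0 of 14 probes were called (0 at an unadjusted p under 0.05), and no probe of the whole array was (0%).

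Fetuses of 1 group differed widely in some of these genes. The pooled SD between fetuses of a group was 1.16 for CD79B and 1.05 for CD79A, larger than for 97.5% and 96.2% of all tested probes, against 0.51 for CD3D and CD3E, 0.56 for CD2 and 0.67 for CD8A. For CD79A it was 0.80 at day 90 and 1.25 at day 110, and for CD79B 1.11 and 1.21. The CD79A probe was well above background on 25 of 32 arrays at day 90 and 19 of 31 at day 110. The part of dim signal in its SDs was not tested. Correlations between genes were taken with the group means removed, among the T cell genes, between CD79A and CD79B, and across these sets. All correlations below are over deviations from group means, were tested by 100000 permutations within groups, two-sided, and were adjusted over 43 pairs. The smallest p these permutations give is 1e-05, or 3.91e-05 after adjustment of r.

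CD3E varied with CD2 (r = 0.81, rho = 0.76, 62 fetuses), with CD8A (r = 0.74, rho = 0.70) and with CD3D (r = 0.73, rho = 0.67), each at an adjusted permutation p of 3.91e-05 for r. Without the 2 fetuses farthest from the median of the x-axis gene, r was 0.76, 0.70 and 0.67, and with the slide means removed as well it was 0.81, 0.74 and 0.75. CD79A varied with CD79B at r = 0.76 (rho = 0.71, 63 fetuses, adjusted permutation p = 3.91e-05), 0.71 without fetuses 559 and 611, and 0.76 with slide means removed. Within ages this r was 0.56 at day 90 and 0.91 at day 110. Among the T cell genes the lowest r was 0.53, for CD2 with CD8A (rho = 0.44, adjusted permutation p = 0.000115). Between T and B cell genes r ran from 0.31 for CD2 with CD79A (rho = 0.29, adjusted permutation p = 0.0439) and for CD3E with CD79B (rho = 0.30, adjusted permutation p = 0.0389) to 0.57 for CD3D with CD79A (rho = 0.55, adjusted permutation p = 0.000115). Without the 2 farthest fetuses these were 0.37, 0.37 and 0.44, while r of CD79B with CD3D went from 0.36 to 0.22 (rho = 0.28, adjusted permutation p = 0.0126 for r over all fetuses) and with CD8A from 0.34 to 0.24 (rho = 0.29, adjusted permutation p = 0.014 for r over all fetuses). The ranges among T cell genes and between T and B cell genes thus overlap, and whether they differ was not tested.

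The share of probes well above background, a measure of the array, followed none of the B cell genes (r of 0.06 with CD79A and 0.00 with CD79B, adjusted permutation p = 0.748 and 0.977). With CD3E it gave r = 0.27 (rho = 0.28, adjusted permutation p = 0.0439), and 0.17 to 0.23 with CD3D, CD2 and CD8A (adjusted permutation p of 0.117 to 0.25).

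**Figure D3:**
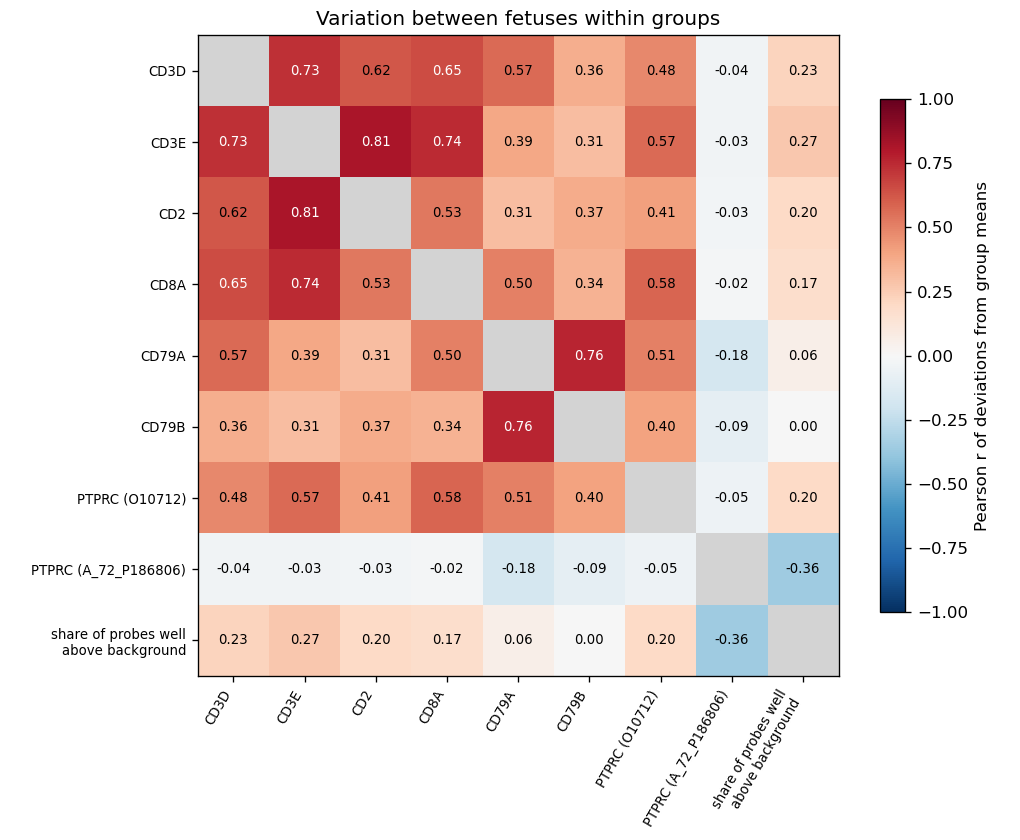
Pearson r between deviations from group means for each pair of genes and for the share of probes well above background. CD3D, CD3E, CD2 and CD8A share coefficients of 0.53 to 0.81, CD79A and CD79B share 0.76, and PTPRC at A_72_P186806 has -0.18 to -0.02 with the other genes.

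Fetus 611 (LWMS, day 110) was above its group mean for all 6 T and B cell genes, by 1.46 for CD3D, 1.18 for CD3E, 1.24 for CD2, 1.63 for CD8A, 2.66 for CD79A and 2.42 for CD79B. Fetus 500 (LW, day 90) was high in the same way, by 0.84 for CD3E and 1.84 for CD79B. Fetus 559 (LW, day 110) was above its group by 2.72 for CD79A and 2.39 for CD79B, with 0.48 for CD3E.

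Some fetuses deviated in opposite directions, and fetus 632 (MS, day 110) was among them. It lay above its group by 1.91 for CD79A and 2.15 for CD79B and below it by values of -1.26 for CD3E, -1.56 for CD2 and -1.07 for CD8A. It also had the lowest array weight, and its part in this pattern was not tested. Fetuses 738 (MSLW, day 90) and 871 (MS, day 110) were above their groups for CD3E, by 0.44 and 0.92, with CD79B at -1.55 and -0.96, and fetus 688 (MSLW, day 110) had -0.48 for CD3E and 1.51 for CD79B. Fetus 450 (MSLW, day 90) was low throughout, with -0.81 for CD3E, -1.23 for CD2 and -2.95 for CD79B.

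**Figure D4:**
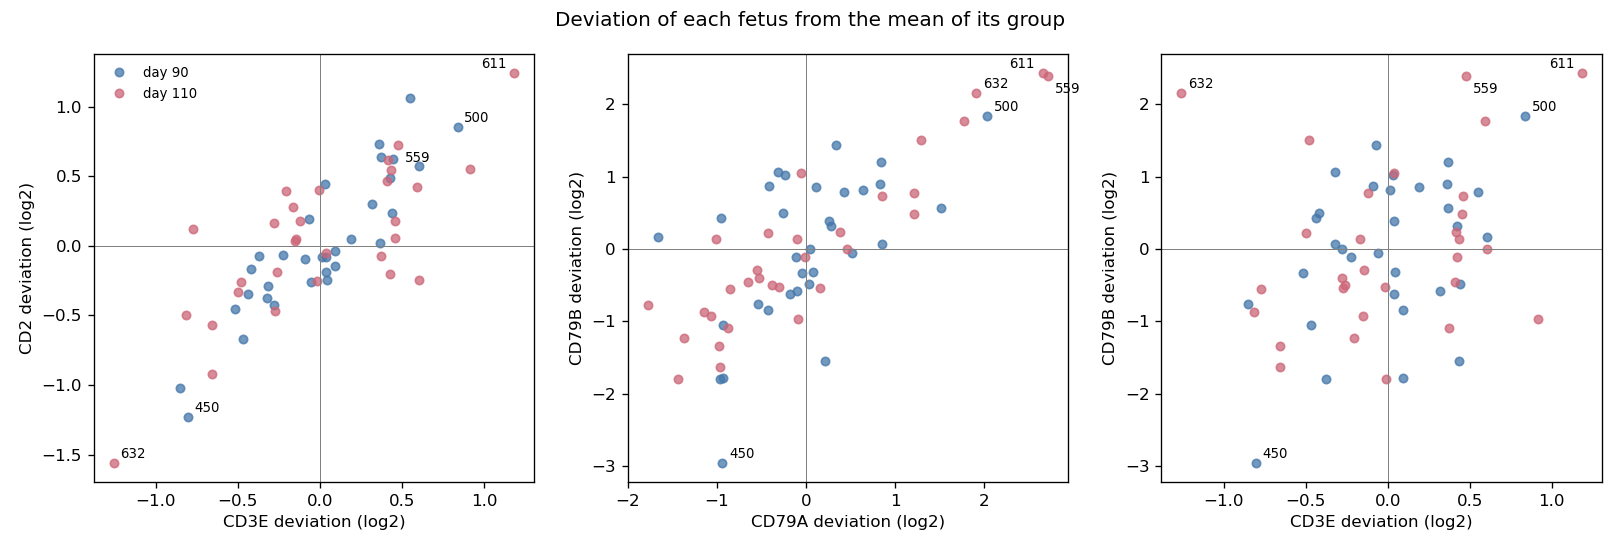
Deviation of each fetus from the mean of its group (log2) for CD3E against CD2, CD79A against CD79B and CD3E against CD79B, coloured by day. Points follow the diagonal in the first 2 panels and scatter in the third, where fetus 632 is at -1.26 for CD3E and 2.15 for CD79B.

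Among 17807 tested probes with a gene symbol known to the reference tables, those whose deviations were most like CD3E over 62 fetuses belonged to LCK, the kinase that starts T cell receptor signalling (r = 0.77), CD27, a co-stimulatory receptor of lymphocytes (0.74), NCKAP1L, a regulator of actin in blood cells (0.71), CCR9, the receptor that guides T cells to the small intestine (0.70), and PSTPIP1, an adaptor in blood cells (0.69). Those most like CD79B over 63 fetuses belonged to POU2AF1, the B cell co-activator OBF-1 (r = 0.77), CCR7, the receptor that draws lymphocytes to lymphoid tissue (0.76), DAPL1 (0.74), CD40, a receptor of B cells and antigen-presenting cells (0.72), and CXCL13, the chemokine of B cell follicles (0.71). These coefficients describe the same arrays and share their depth and scaling. The LCK probe concerned, A_72_P290209, was not the brightest of the 4 tested LCK probes, and the brightest gave -0.00158 with CD3E.

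PTPRC needs its probes told apart. A_72_P186806, whose last bases are the repeat shown above, had a mean level of 2.20, and the other PTPRC probes had -2.45 (O10712) and -2.83 (A_72_P442513). O10712 and A_72_P442513 varied together (r = 0.60, rho = 0.64, adjusted permutation p = 3.91e-05, 61 fetuses), and O10712 varied with the T and B cell genes at r of 0.40 to 0.58. A_72_P186806 gave r = -0.05 with O10712 (rho = -0.09, adjusted permutation p = 0.777) and 0.15 with A_72_P442513 (rho = 0.11, adjusted permutation p = 0.327). It gave -0.36 with the share of probes well above background (rho = -0.35, adjusted permutation p = 0.0141), which was -0.17 with slide means removed. What else this probe may bind was not tested.

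Second probes of the other genes were closer to the first than A_72_P186806 was to the other PTPRC probes. The CD8A pair holds the same 60 bases and the CD3E pair shares 51, so these pairs largely repeat a sequence. The r of deviations between probes of a gene was 0.83 for CD8A, 0.78 for CD3E, 0.74 for CD79A and 0.60 for CD2 (rho of 0.77, 0.73, 0.71 and 0.53), each with an adjusted permutation p of 3.91e-05 for r. For CD3D it was 0.29 (rho = 0.44, adjusted permutation p = 0.0592 for r), where the second probe, A_72_P185936, was well above background on 22 of 63 arrays.

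Lists of further lymphocyte genes put these values in context, with each gene represented by its brightest tested probe and called by the rule for age. Of 12 tested genes of T cell receptor signalling, 0 rose and 1, the kinase FYN, fell (-0.58 ± 0.12, adjusted p = 6.7e-05), with a list median of -0.02, against -0.02 over all tested probes. FYN deviated with CD3E between fetuses at r of 0.16, where the list median was 0.47. LCP2 gave 0.48 ± 0.15 (adjusted p = 0.00821 in limma), past the threshold for p but under the minimum of 0.5. Of 16 tested B cell genes, CD24 rose by 1.06 ± 0.09 and CD38 and BACH2 fell, with -0.57 ± 0.18 and -0.67 ± 0.13, for a list median of -0.10. CD24 is carried by epithelium too, CD38 is an enzyme of the surface of many cells, and BACH2 is a repressor of B and T cell differentiation. CR2, a complement receptor of B cells, gave -0.86 ± 0.35 (adjusted p = 0.0452), which was not called, and MS4A1, which encodes CD20, gave -0.19 ± 0.30. Of all tested probes, 6.07% were called higher at day 110 and 7.71% lower.

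Of 24 tested homing genes 2 rose (8.33%) and 3 fell (12.5%), against 6.07% and 7.71% of all tested probes. CCL28 (2.76 ± 0.31), a mucosal chemokine, and TNFSF13B (1.35 ± 0.27), the B cell survival factor BAFF, rose. CXCL13 (-2.57 ± 0.33), CXCL12 (-1.19 ± 0.13) and CCL19 (-0.94 ± 0.30), chemokines made by stromal cells of lymphoid tissue, fell. CXCL13 and CCL19 deviated with CD79B between fetuses at r of 0.71, and CXCL12 did so at 0.42. The median r with CD79B over the 24 homing genes was 0.30. Of 14 tested cytotoxic genes the protease CTSW rose, by 0.56 ± 0.09. Of 6 plasma cell and immunoglobulin genes, PIGR, which epithelium uses to carry IgA, rose by 5.01 ± 0.38, and PRDM1, a factor of plasma cells and fetal enterocytes, fell, with -0.75 ± 0.16. Of 15 pan-leukocyte genes RAC2 (1.12 ± 0.15) and ARHGDIB (0.71 ± 0.13) rose. Among markers of other cell types, 4 of 14 epithelial genes rose and 1 fell (median 0.40; FABP1 by 2.55, ANPEP -0.59), 1 of 8 smooth muscle genes fell (median -0.18; ACTA2 -0.55), 3 of 7 erythroid genes fell (AHSP -1.80), 2 of 15 myeloid genes rose (LYZ 3.45, CD163 0.94), MS4A2 of 5 mast cell genes rose (1.05) and 0 of 7 endothelial genes were called. The part of these differences in the values of the lymphocyte genes was not tested.

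**Figure D5:**
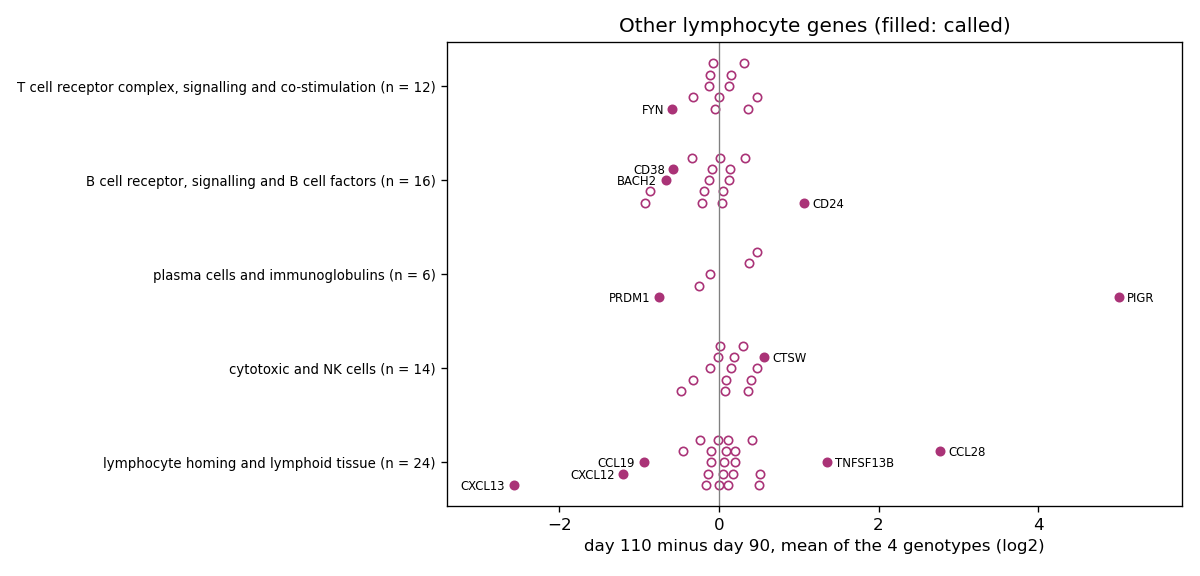
Difference between day 110 and day 90 (log2, mean of the 4 genotypes) for each tested gene of 5 lymphocyte lists, 1 point per gene, with called genes filled and named. Genes of T and B cell receptor signalling gather around 0, and the homing list runs from -2.57 for CXCL13 to 2.76 for CCL28.

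By the breed of the sow, 1 of the 12 genes of T cell receptor signalling (LCK at its brightest probe, -0.64) and 1 of the 16 B cell genes (CD38, -1.51) were called lower in fetuses of MS sows and none higher, while 5 of 15 myeloid genes were called higher. This LCK probe is the one that gave r of -0.00158 with CD3E. Values by sow of the other tested LCK probes are not reported here. Of all tested probes 7.26% were called higher and 8.71% lower.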

How the data were processed

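Jejunum RNA of 63 fetuses was hybridised to one-colour arrays, 1 fetus per array, on 8 slides scanned on 1 day. The authors deposited scanner files from Agilent Feature Extraction holding the linear intensity of each spot after background correction. They also deposited normalized log2 values of 39446 probes, not centred by gene (medians 8.61 in all arrays, r with the same array at least 0.989). How they were normalized is not given in the sources used here. No genome build is used here.

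Outlier spots were left out, processed intensities were put on a log2 scale, and each array's 75th percentile was subtracted. Means of the 8 groups were fitted in limma 3.58.1 (R 4.3.3) and p-values, two-sided, were adjusted by Benjamini-Hochberg over 40515 probes. The study's random effect of the sow was not fitted, and 2 fetuses it left out of fold changes (484 and 469) were kept, with an alternative without them. Background subtraction makes differences of dim probes uncertain. The number of arrays limits precision.

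The genes and lists were chosen with earlier results of these data known. All tested probes of the 9 genes are counted, and each gene is described by its brightest, with values of other probes in part. Named from other lists are the called genes of T and B cell receptor lists and the called genes with the largest rise and fall of each list. CR2, MS4A1, TNFSF13B, CXCL12, CCL19, ARHGDIB, CD163, LCK and LCP2 were named after their values were seen. Alternatives were normexp (offset 50), quantile normalization, median centring, the authors' values, other filters, slide as a block, array weights and leaving out fetuses. Some genes of the lists, and the list of T cell transcription factors, are not reported here. The steps were tested on simulated data.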

Additional observations from a re-analysis of the deposited data

Results flagged for a closer look

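In each group of 6 to 9 fetuses, the gap between the most extreme fetus and its neighbour was compared with Dixon's 95% critical value, for the brightest probe of each gene and O10712 of PTPRC. Of 64 groups tested 9 held such a fetus, where chance gives about 1 in 20 for independent tests. These tests were not independent, since the same fetuses were taken for each probe and the probes varied together. Fetuses 611 and 524 were each flagged for more than 1 gene, and an excess over chance was not tested. At day 110, fetus 611 (LWMS) stood above its group for CD3D (0.16), CD2 (-2.11) and CD79B (-0.42), fetus 559 (LW) for CD79A (-1.87), and fetus 632 (MS) below its group for CD2 (-5.23). At day 90, fetus 524 (MS) stood below its group for CD8A (-5.22) and PTPRC at O10712 (-3.83), fetus 532 (MS) above it for CD2 (-2.40), and fetus 485 (MSLW) above it for PTPRC at O10712 (-1.38). Levels are on the log2 scale used above. Fetuses 632 and 532 were among the 4 of lowest array weight.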

How the results depend on the processing

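The counts of called probes by age, sow, sire, purebred breed, interaction and F test were 0 of 14 in the reported setting, and these moved. By age, CD79B made it 1 in the authors' values and, as an alternative chosen after seeing the data, without the 4 fetuses of lowest array weight. By the sire it was 1 under quantile normalization and under median centring (PTPRC at A_72_P442513) and with array weights (CD79A at A_72_P070401). By the sow it was 2 with no filter on dim probes (both CD4 spots of 1 sequence) and 1 with array weights (CD2 at A_72_P131826), and the F test called 2 with array weights (CD3D and CD2). Leaving out each fetus in turn gave 0 to 1 by age (CD79B) and 0 to 1 by the sire (PTPRC at A_72_P442513, without fetus 578), and 0 in the other counts. No paired analysis was possible because the fetus numbers of the labels are unique to a fetus, and the slide alone served as a block.

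No called difference changed its sign. Among values that were not called, the signs of small ones turned. With normexp, CD2 by sire became 0.00776, CD8A with age in LW 0.0602, CD79A with age in LW 0.13, and PTPRC (O10712) 0.0499 for MS minus LW at day 90 and 0.0291 by sire. With quantile normalization, CD8A and CD79A with age in MSLW became -0.0886 and -0.182, and PTPRC (A_72_P186806) -0.0108 for MS minus LW at day 110 and 0.000144 by sire. With median centring, CD3D by sire became -0.00465, CD79A with age in MSLW -0.00850, and PTPRC (A_72_P186806) 0.0507 with age and 0.0708 with age in LWMS. In the authors' values PTPRC (A_72_P186806) became -0.00992 for MS minus LW at day 110, -0.00844 by sow and 0.00582 by sire. With the slide as a block, CD3E by sow became -0.0128, CD79A by sow -0.142 and PTPRC (A_72_P186806) by sire 0.00723. With array weights, CD3E became 0.228 with age in MS, 0.0180 for MS minus LW at day 110 and 0.0621 by sire, CD2 0.282 with age in MS and 0.0231 by sire, CD79A -0.120 by sow, CD79B -0.0442 for MS minus LW at day 110, and PTPRC 0.0823 by sire at A_72_P186806 and, at O10712, 0.111 for MS minus LW at day 90 and 0.0962 by sire. Without fetuses 484 and 469, CD79A by sow became -0.0299 and PTPRC 0.0271 with age and 0.00285 by sire at A_72_P186806 and 0.0186 by sire at O10712. Without the 4 fetuses of lowest array weight, CD3E and CD2 with age in MS became 0.182 and 0.260, CD79A by sow -0.131, and PTPRC 0.0198 with age and 0.0268 by sire at A_72_P186806 and 0.0114 by sire at O10712. The cause of these turns was not tested.

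Leaving out each fetus in turn, the values whose sign turned ran, for age, from -0.290 to 0.0721 for CD3E in MS, -0.0566 to 0.178 for CD2 in LW, -0.304 to 0.0480 in MS and -0.0420 to 0.217 in LWMS, -0.166 to 0.288 for CD8A in MSLW, -0.237 to 0.296 for CD79A and -0.599 to 0.147 for CD79B in MSLW, and -0.0334 to 0.0258 for PTPRC (A_72_P186806) over all genotypes and -0.0164 to 0.145 in LW. By breed they ran from -0.0210 to 0.194 for CD3E, -0.0502 to 0.122 for PTPRC (A_72_P186806) and -0.223 to 0.0987 for PTPRC (O10712) for MS minus LW at day 90, from -0.0975 to 0.559 for CD79B at day 110, from -0.0323 to 0.0624 for CD3E and -0.0591 to 0.109 for CD79A by sow, and from -0.0423 to 0.0170 and -0.0514 to 0.0445 for the PTPRC probes by sire. The rise of CD2 in MSLW stayed between 1.01 and 1.37, and that of CD3E over all genotypes between 0.27 and 0.36. Signal over background limits CD4, CD2 at A_72_P131826, CD3D at A_72_P185936 and A_72_P504254, CD8A at A_72_P685866 and, on many arrays, CD79A.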
